A study of Capra hircus with 72 samples.

Results

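The retrotrapezoid nucleus (RTN) of goats kept for 14 days at 6% CO2 was compared with the RTN of goats kept for 14 days in room air. These libraries were chosen by their labels: 12 of the 72 libraries of the series, 6 from mild chronic hypercapnia and 6 from room air. All animals were female goats (Capra hircus), and no other treatment, strain or age is given in the labels. The series also holds a moderate level of chronic hypercapnia (7 days of 6% CO2 followed by 7 days of 8%) and 3 further regions, the ventral respiratory column (VRC), the nucleus of the solitary tract (NTS) and the medial prefrontal cortex (mPFC). The series description gives 6 animals per condition. The labels do not say that the replicates of a group are separate animals, so the p-values measure the spread between these libraries. The tissue is a dissected brainstem region with all of its cells, so more cells of a type and more RNA per cell cannot be told apart.

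The RTN lies at the ventral surface of the medulla and is known for central chemoreception. Its glutamatergic neurons carry the neuropeptide neuromedin B (NMB), are excited by CO2 and protons, and drive the respiratory rhythm generator. Proton detection in these neurons is attributed to the receptor GPR4 and the potassium channel KCNK5. Astrocytes around them take part through inwardly rectifying potassium channels, connexins and bicarbonate transport, and serotonergic neurons of the nearby raphe modulate them.

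Library totals in the 12 libraries ran from 14.74 to 24.37 M counts, of which the top 10 genes held 8.618% to 10.55%. The region held its marker NMB in every library, at 4.48 to 27.2 CPM (counts relative to the TMM-scaled total of the library). Genes of neighbouring neurons were present as well. In room air the mean RPKM, a value per length, was 27.8 for NMB, against 12.9 for TPH2 of serotonin synthesis and 160.4 for SLC18A3, the vesicular acetylcholine transporter of motor neurons. The dissected tissue thus held other neurons beside the chemosensory ones.

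At the level of single genes, mild hypercapnia gave no gene past the threshold. Of 15343 genes tested with edgeR's quasi-likelihood test, 0 (0%) had an adjusted p under 0.05, and the smallest adjusted p was 0.28. At an unadjusted p under 0.05 there were 1011 genes, where 767 would be the share of 0.05 of the genes tested: 509 were higher (3.32%) and 502 lower (3.27%) in mild hypercapnia. Positive log2 fold changes made up 49.9% and negative ones 50.1%, with a median of -0.00065 and an interquartile range of -0.13 to 0.11. The libraries of the groups did not overlap for 28 genes that were higher (0.182%) and 21 that were lower (0.137%). DESeq2, run as an alternative, called 17 of 19222 genes (0.0884%) at an adjusted p under 0.05, 8 higher and 9 lower. It was run without the filter on low counts, and its calls TNFSF15 and S-LZ were not among the genes edgeR tested. Without that filter edgeR also called 0 genes. In counts simulated for these 15343 genes and libraries, 67 genes were given a 1.5-fold change, 67 a 2-fold change and 66 a 4-fold change. Of these edgeR recovered 31.3%, 65.7% and 95.5%. Changes planted together ease the adjusted threshold for each other, so these are not the recovery rates where fewer genes change. The simulated counts were also drawn with the dispersions that the same fit estimated, so the percentages may not hold for the real libraries. In the real counts GPR18, SH2D4B and CD2 had log2 differences of 2.30, 2.45 and 2.10 and an adjusted p of 0.28 with edgeR. "Higher" and "lower" describe group values from here on: every adjusted p of edgeR in this comparison was 0.28 or above. Counts of list members at an unadjusted p under 0.05 are to be read against the 3.32% higher and 3.27% lower of all genes.

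**Figure D1:**
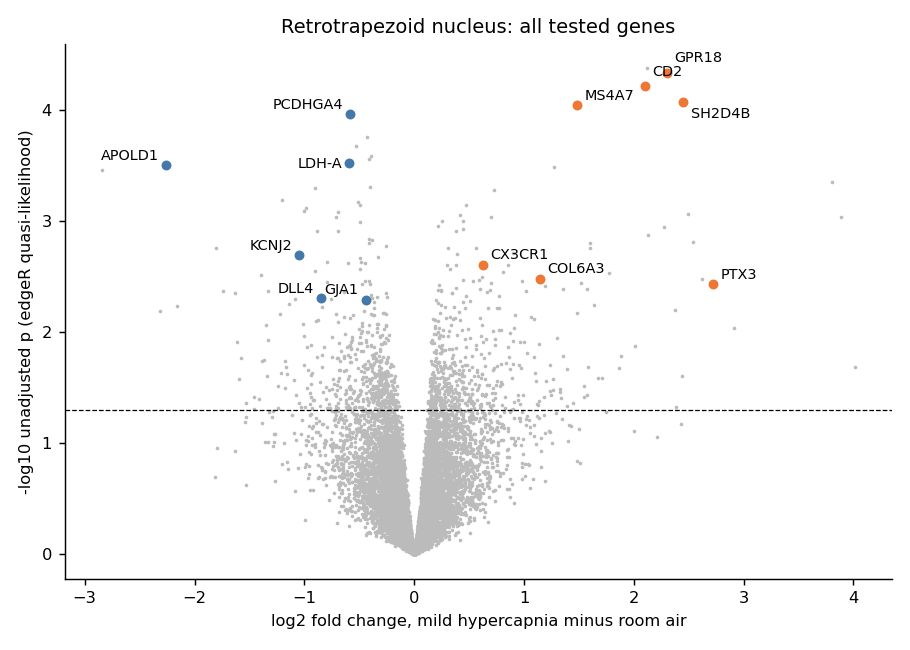
Log2 fold change in the retrotrapezoid nucleus (x axis, mild hypercapnia minus room air) against -log10 of the unadjusted p (y axis) for the 15343 tested genes, 1 point per gene, with the dashed line at the unadjusted threshold of 0.05. The labelled genes are named in the text, and none of the points passed an adjusted p of 0.05, the smallest being 0.28.

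The gene of smallest p among those above a mean of 5 CPM and higher in mild hypercapnia was MS4A7 (ENSCHIG00000024866, chromosome 15), a membrane protein of macrophages and microglia. Its lowest, median and highest libraries were 4.84, 8.04 and 11.7 CPM in room air and 13.8, 23.2 and 32.4 CPM in mild hypercapnia. All mild libraries were above all room air libraries. The means were 8.24 ± 2.88 and 23.1 ± 8.12 CPM (SD, n = 6 each). The log2 difference was 1.49 ± 0.30 (SE), with an adjusted p of 0.28 with edgeR and 0.00228 with DESeq2.

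The fractalkine receptor CX3CR1 (chromosome 22), a defining gene of microglia, had room air libraries at 27.0, 30.4 and 37.3 CPM (lowest, median, highest) and mild libraries at 40.6, 46.4 and 54.7 CPM. The groups again did not overlap, and the log2 difference was 0.63 ± 0.18 (adjusted p 0.61 with edgeR). P2RY12, the ADP receptor by which microglia sense injury, had libraries at 17.4, 22.9 and 27.9 CPM in room air and 27.0, 30.5 and 46.5 CPM in mild hypercapnia. Those groups overlapped, and the difference was 0.51 ± 0.16. ITGAM, PTPRC and SPI1, an integrin, the leukocyte phosphatase CD45 and the transcription factor PU.1, differed by 0.48, 0.62 and 0.65, each at an unadjusted p under 0.05. CD163, a scavenger receptor of perivascular macrophages, differed by 1.55 ± 0.70 at a median of 0.947 CPM in mild hypercapnia.

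Across the microglia and macrophage list, 14 of 14 tested markers had a positive difference, 6 of them at an unadjusted p under 0.05 and 0 at an adjusted p under 0.05, against 49.9% positive over all genes. The median difference was 0.43. The markers TREM2, TYROBP, C1QB and C1QC were at 0.26, 0.19, 0.22 and 0.18, none of them at an unadjusted p under 0.05. MRC1 and LYVE1, markers of perivascular macrophages, did not pass the filter on low counts. The mean log2 CPM over the list was 3.74 to 4.85 in room air and 4.28 to 4.87 in mild hypercapnia, so the groups overlapped. Room air replicate 1 was the highest of its group at 4.85, and the next was at 4.19. Without that library the median difference of the list was 0.55, and over all libraries left out in turn it was 0.31 to 0.55.

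**Figure D2:**
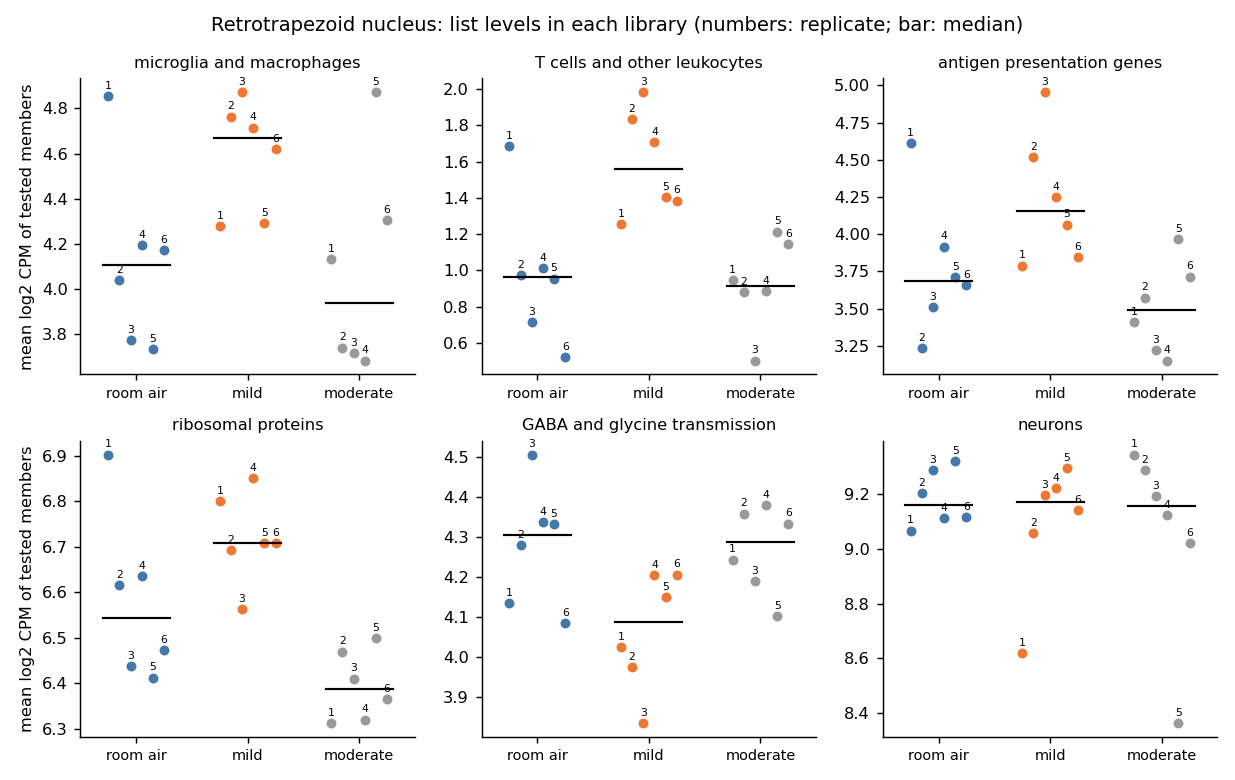
Mean log2 CPM of the tested members of 6 lists (y axis) in each retrotrapezoid library by condition (x axis), with the replicate number above each point and a bar at the group median. Room air replicate 1 reaches the mild libraries in the microglia panel at 4.85 and the leukocyte panel at 1.68, and mild replicate 1 lies below the others in the neuron panel at 8.62.

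Lymphocyte genes were at low levels. CD2 (ENSCHIG00000023355, chromosome 3), an adhesion receptor of T cells and natural killer cells, had room air libraries at 0.171, 0.239 and 1.06 CPM and mild libraries at 1.28, 1.77 and 2.56 CPM. The groups did not overlap, and the log2 difference was 2.10 ± 0.41 (adjusted p 0.28 with edgeR). CD2 was called with DESeq2 (adjusted p 0.00251), with limma and quality weights (adjusted p 0.0457) and with edgeR when room air replicate 1 was left out (log2 2.65, adjusted p 0.0272). CD3G, a chain of the T cell receptor complex, differed by 1.10 ± 0.45, and CD3D by 0.69 ± 0.37.

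The helper T cell receptor CD4 differed by 0.58 ± 0.39, which was 1.11 without room air replicate 1 and 0.42 without room air replicate 3. Of 19 listed T cell and leukocyte markers, 10 were tested, and 9 of the 10 were positive, 2 at an unadjusted p under 0.05, with a median of 0.40. GZMA, CCR7, IL7R, CD79A, CD79B, MS4A1 and S100A8 did not pass the filter, and CD79B and MS4A1, markers of B cells, had no read in 5 of the 12 libraries. The median was 0.67 without room air replicate 1.

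GPR18 and SH2D4B were not in a list and were chosen after their values were seen, because DESeq2 called them. GPR18, a receptor of lymphoid and myeloid cells, was at 0.57 to 1.09 CPM in room air and at 1.34 to 8.85 CPM in mild hypercapnia, a log2 difference of 2.30 ± 0.44 (adjusted p 0.28 with edgeR). SH2D4B, an SH2 domain protein, was at 0.171 to 3.11 CPM in room air and 4.12 to 10.8 CPM in mild hypercapnia, a difference of 2.45 ± 0.49 (adjusted p 0.28 with edgeR). Neither gene had overlapping groups. IL20RB, a subunit of receptors for interleukin 20 family cytokines, was also called by DESeq2, but 1 mild library lay at 0.294 CPM within the room air range.

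Antigen presentation genes had positive differences in 13 of 13 tested members, with a median of 0.41. Of these, 4 had an unadjusted p under 0.05, against 3.32% of all genes higher at that p. HLA-DRA, a class II alpha chain, had libraries at 34.4, 59.8 and 147 CPM in room air and at 77.0, 116 and 218 CPM in mild hypercapnia. The groups overlapped, and the difference was 0.83 ± 0.37. CIITA, the transcriptional coactivator of class II genes, differed by 0.78 ± 0.33. The list median ranged from 0.25 without mild replicate 3 to 0.60 without room air replicate 1. Near-identical histocompatibility genes can share reads, so single values of that family are uncertain. Mild replicate 3 was the highest mild library for the microglia, leukocyte and antigen presentation lists alike. The part of those cell markers in these values was not tested.

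Among cytokines and genes of innate inflammation, 23 of 31 tested members were positive, with a median of 0.22. Of these, 4 had an unadjusted p under 0.05, against 3.32% of all genes higher at that p. The median was 0.12 without room air replicate 3 and 0.37 without room air replicate 1. CCL2, a chemokine for monocytes, had libraries at 4.11, 10.5 and 16.2 CPM in room air and 7.88, 17.7 and 151 CPM in mild hypercapnia. Mild replicates 2 and 4 stood at 151 and 104 CPM, and the other 4 mild libraries at 22.8 or below. The long pentraxin PTX3 was at 25.6 and 18.3 CPM in the same libraries and at 1.94 to 5.36 CPM in the other mild ones. The log2 differences were 2.37 ± 0.77 for CCL2 and 2.73 ± 0.82 for PTX3. Without mild replicate 2 the values were 1.65 and 2.15. SOCS3, a feedback inhibitor of cytokine signalling, was highest in these libraries too, at 4.51 and 2.72 CPM, and differed by 1.58, or 0.96 without mild replicate 2.

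Interferon response genes had a median of 0.14, with 17 of 23 tested members positive. IFIT3, an interferon-induced antiviral protein, was higher (0.38 ± 0.15) and USP18, a brake on interferon signalling, was lower (-0.43 ± 0.16). Without mild replicate 3 the list median was 0.05.

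Of 13 listed chemosensory neuron genes 10 were tested, and 0 of them had an unadjusted p under 0.05. The libraries of the groups overlapped for all 10 genes. NMB was at 4.48, 8.77 and 20.9 CPM in room air (lowest, median, highest) and at 5.37, 10.6 and 27.2 CPM in mild hypercapnia, a difference of 0.35 ± 0.38. It was near 0 without mild replicate 1 and 0.70 without room air replicate 5. For this gene the SD within each group was larger than the difference between the group means.

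The proton receptor GPR4 was at 7.40 ± 1.79 CPM in room air and 6.92 ± 0.804 CPM in mild hypercapnia (SD, n = 6 each), a log2 difference of -0.10 ± 0.22. KCNK5, the alkaline-activated potassium channel also called TASK-2, differed by 0.34 ± 0.34. ADCYAP1, which encodes the peptide PACAP released by these neurons, differed by -0.43 ± 0.27, and GAL, which encodes galanin, by 0.69 ± 0.52. The vesicular glutamate transporter SLC17A6 differed by -0.31 ± 0.40 and the PACAP and VIP receptor VIPR2 by 0.09 ± 0.38. The hindbrain transcription factors EGR2 and LBX1 differed by 0.31 ± 0.35 and 0.09 ± 0.50, at levels of about 1 CPM or less. TLX3 did not pass the filter, and TACR1 and GRP were not matched by symbol among the tested genes. Leaving out 1 library moved several of these values: SLC17A6 was -0.11 without room air replicate 3 and -0.57 without mild replicate 6, ADCYAP1 was -0.19 without room air replicate 3 and GAL was 0.40 without mild replicate 3. The median over the tested genes was 0.09, and it was -0.03 without mild replicate 1.

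Genes of CO2 and proton sensing and glial coupling had a median of -0.05, with 13 of 23 negative. At an unadjusted p under 0.05 there were 3, all lower, against 3.27% of all genes. The gap junction protein GJA1, connexin 43 of astrocytes, had libraries at 96.2, 105 and 122 CPM in room air and at 55.0, 77.0 and 108 CPM in mild hypercapnia. Mild replicate 1, at 108 CPM, lay within the room air range, and the other 5 mild libraries lay below it. The log2 difference was -0.44 ± 0.14 (adjusted p 0.69 with edgeR). KCNJ10, the Kir4.1 channel of astrocytes, differed by -0.26 ± 0.12, and KCNK2, the leak channel TREK-1, by -0.62 ± 0.29, or -0.37 without room air replicate 6.

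Astrocyte markers as a whole had a median of -0.11, with 9 of 12 negative and GJA1 alone at an unadjusted p under 0.05. GFAP, the intermediate filament of astrocytes, differed by -0.23 ± 0.24. Without mild replicate 3 the list median was near 0 and GFAP was at -0.10, and without mild replicate 1 they were -0.20 and -0.46. Carbonic anhydrase, bicarbonate and proton transport genes had a median of -0.11, with 18 of 29 negative. Of these, SLC16A3, a lactate and proton cotransporter, was at -0.47 ± 0.22 with an unadjusted p under 0.05, and SLC4A4, the sodium bicarbonate cotransporter of astrocytes, was at -0.26. The first was -0.25 without room air replicate 3, and the second -0.14 without mild replicate 3.

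Potassium and pacemaker channel genes had 27 of 40 tested members negative and a median of -0.11. Of the 40, 1 was higher and 2 lower at an unadjusted p under 0.05, against 3.32% and 3.27% of all genes. KCNJ2, the inward rectifier Kir2.1, was at 2.79 to 3.42 CPM in room air and 0.581 to 2.15 CPM in mild hypercapnia. The groups did not overlap, and the log2 difference was -1.05 ± 0.29 (adjusted p 0.59 with edgeR). KCNA5, a delayed rectifier, was higher (0.71 ± 0.31), and KCNG1, a modulatory subunit, was lower (-0.77 ± 0.36).

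Genes of inhibitory transmission were mostly lower. Of 27 tested GABA and glycine genes, 22 had a negative difference, against 50.1% of all genes, with a median of -0.19 and 3 at an unadjusted p under 0.05. GABRG1, the gamma 1 subunit of the GABA-A receptor, had libraries at 35.2, 42.7 and 52.4 CPM in room air and at 29.1, 37.6 and 40.7 CPM in mild hypercapnia. The groups overlapped, and the log2 difference was -0.26 ± 0.11. SLC6A5, the glycine transporter of glycinergic neurons, differed by -0.20 ± 0.34.

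Glutamate transmission genes had 21 of 25 tested members negative and a median of -0.20, which was -0.11 without room air replicate 3. GRIN3A, an NMDA receptor subunit, was the 1 member at an unadjusted p under 0.05 (-0.29 ± 0.14). The neuron markers had a median of -0.02, with 9 of 13 negative. SYT1, the calcium sensor of synaptic vesicle release, was at -0.59 ± 0.24, with mild replicate 4 at 57.8 CPM and the other mild libraries at 18.2 to 29.3 CPM. Without mild replicate 4 it was -0.92. The mean log2 CPM of the neuron markers was 9.07 to 9.32 in room air and 8.62 to 9.30 in mild hypercapnia.

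**Figure D3:**
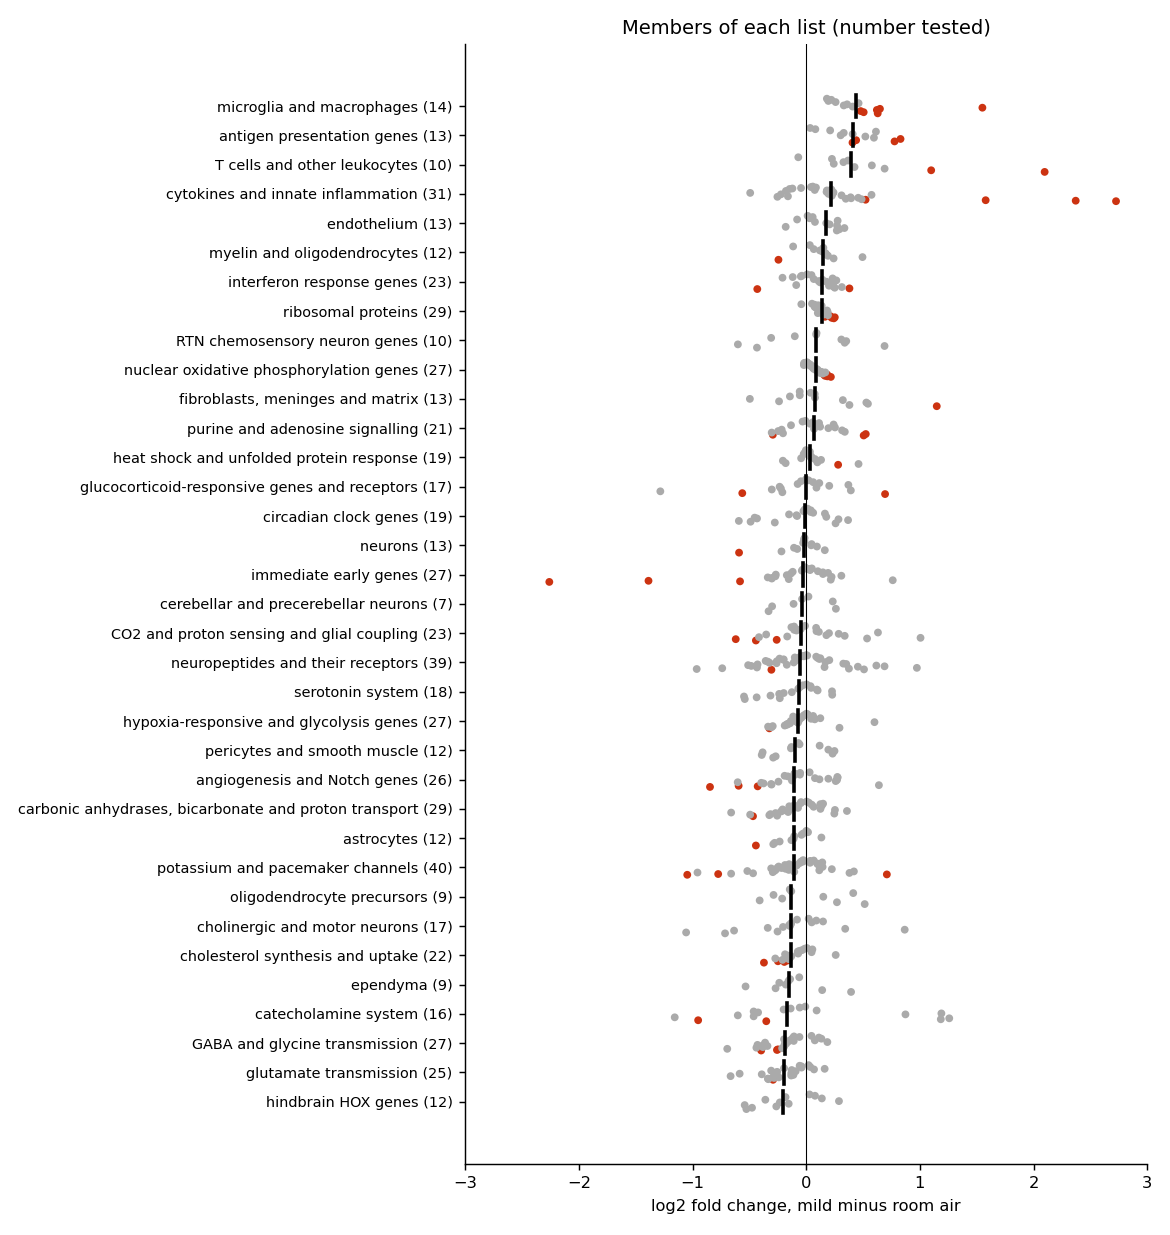
Log2 fold change, mild hypercapnia minus room air (x axis), of each tested member of the lists with 7 or more tested genes (y axis, number tested in brackets), with members at an unadjusted p under 0.05 in red and the list median as a black bar. The microglia, antigen presentation and leukocyte medians (0.43, 0.41 and 0.40) are at the top, and the HOX, glutamate and GABA medians (-0.21, -0.20 and -0.19) at the bottom.

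Genes of the modulatory neurons were spread widely among libraries. TPH2 was at 76.8 ± 21.3 CPM in room air and 82.0 ± 31.0 CPM in mild hypercapnia, and the serotonin transporter SLC6A4 at 37.3 ± 12.5 and 36.6 ± 13.1 CPM (SD, n = 6 each). Of 18 tested genes of the serotonin system, 0 had an unadjusted p under 0.05. TH, the rate-limiting enzyme of catecholamine synthesis, was at 7.80, 13.9 and 35.0 CPM in room air and at 6.66, 24.8 and 83.2 CPM in mild hypercapnia. Mild replicates 1 and 2 stood near 83 CPM, and the other mild libraries at 6.66 to 24.9 CPM.

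The log2 differences were 1.26 ± 0.73 for TH and 1.18 ± 0.58 for DBH, which makes noradrenaline. The same replicates 1 and 2 were highest for DBH, at 41.0 and 27.8 CPM, and without mild replicate 1 its difference was 0.77. With a myelin score as covariate the differences were 0.39 for TH and 0.58 for DBH. Of 16 tested catecholamine genes, 2 were lower at an unadjusted p under 0.05, against 3.27% of all genes. They were the adrenergic receptors ADRA2A at -0.35 ± 0.14 and ADRB1 at -0.95 ± 0.44. The cholinergic genes CHAT and SLC18A3 differed by -0.15 ± 0.37 and -0.13 ± 0.40, and 0 of 17 tested genes of their list had an unadjusted p under 0.05. Both of these cholinergic differences were positive with a myelin score as covariate, and SLC18A3 was near 0 without mild replicate 4. Of 39 tested neuropeptides and receptors, ADCYAP1R1, the PACAP receptor, was the 1 at an unadjusted p under 0.05 (-0.31 ± 0.15).

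Several vascular genes were lower in mild hypercapnia. APOLD1 (ENSCHIG00000008149, chromosome 5), an immediate early gene of endothelium, had room air libraries at 3.04, 4.74 and 24.3 CPM and mild libraries at 0.822, 1.49 and 3.01 CPM. The groups did not overlap, by a margin of 3.04 against 3.01 CPM, and room air replicate 6 was far above its group. The log2 difference was -2.26 ± 0.52, with an adjusted p of 0.38 with edgeR and 0.00581 with DESeq2, and it was -1.60 without room air replicate 6. That library was also the highest for NR4A1 (26.8 CPM), FOS (49.7 CPM) and CDKN1A (13.9 CPM).

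Of 26 tested members of the angiogenesis and Notch list, 3 were lower at an unadjusted p under 0.05, against 3.27% of all genes. DLL4, the Notch ligand of endothelial tip cells, was at 4.26 to 12.1 CPM in room air and 3.29 to 6.40 CPM in mild hypercapnia (-0.85 ± 0.27). The receptor NOTCH1 differed by -0.43 ± 0.15 and ANGPT2, a TEK ligand that destabilises vessels, by -0.59 ± 0.26. VEGFA differed by -0.30 ± 0.17. The list had 17 of 26 members negative and a median of -0.10, which was -0.05 without room air replicate 1. The endothelial markers had 11 of 13 positive and a median of 0.18, which was 0.08 without mild replicate 3. COL6A3, a collagen VI chain of fibroblasts, was at 5.20, 14.1 and 28.6 CPM in room air and at 17.4, 35.3 and 51.7 CPM in mild hypercapnia (1.15 ± 0.34). It was the 1 of 13 fibroblast and matrix markers at an unadjusted p under 0.05.

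Among immediate early genes, NR4A1, an activity-induced nuclear receptor, differed by -0.58 ± 0.22 and EGR4 by -1.39 ± 0.54. NR4A1 was at -0.29 without room air replicate 6. FOS differed by -0.17 ± 0.21 and was at 0.11 without that library. The list median was -0.03, and 0.06 without room air replicate 6. ANGPTL4, a lipase inhibitor induced by glucocorticoids, was higher (0.69 ± 0.21), with 7.62 ± 1.03 CPM in room air and 12.3 ± 3.72 CPM in mild hypercapnia. CDKN1A, a cell cycle inhibitor, was lower (-0.56 ± 0.20), and -0.36 without room air replicate 6. Both genes are in the list of glucocorticoid-responsive genes and receptors, of which 8 of 17 tested members were positive, with a median of -0.0035. In that list 1 gene was higher and 1 lower at an unadjusted p under 0.05.

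**Figure D4:**
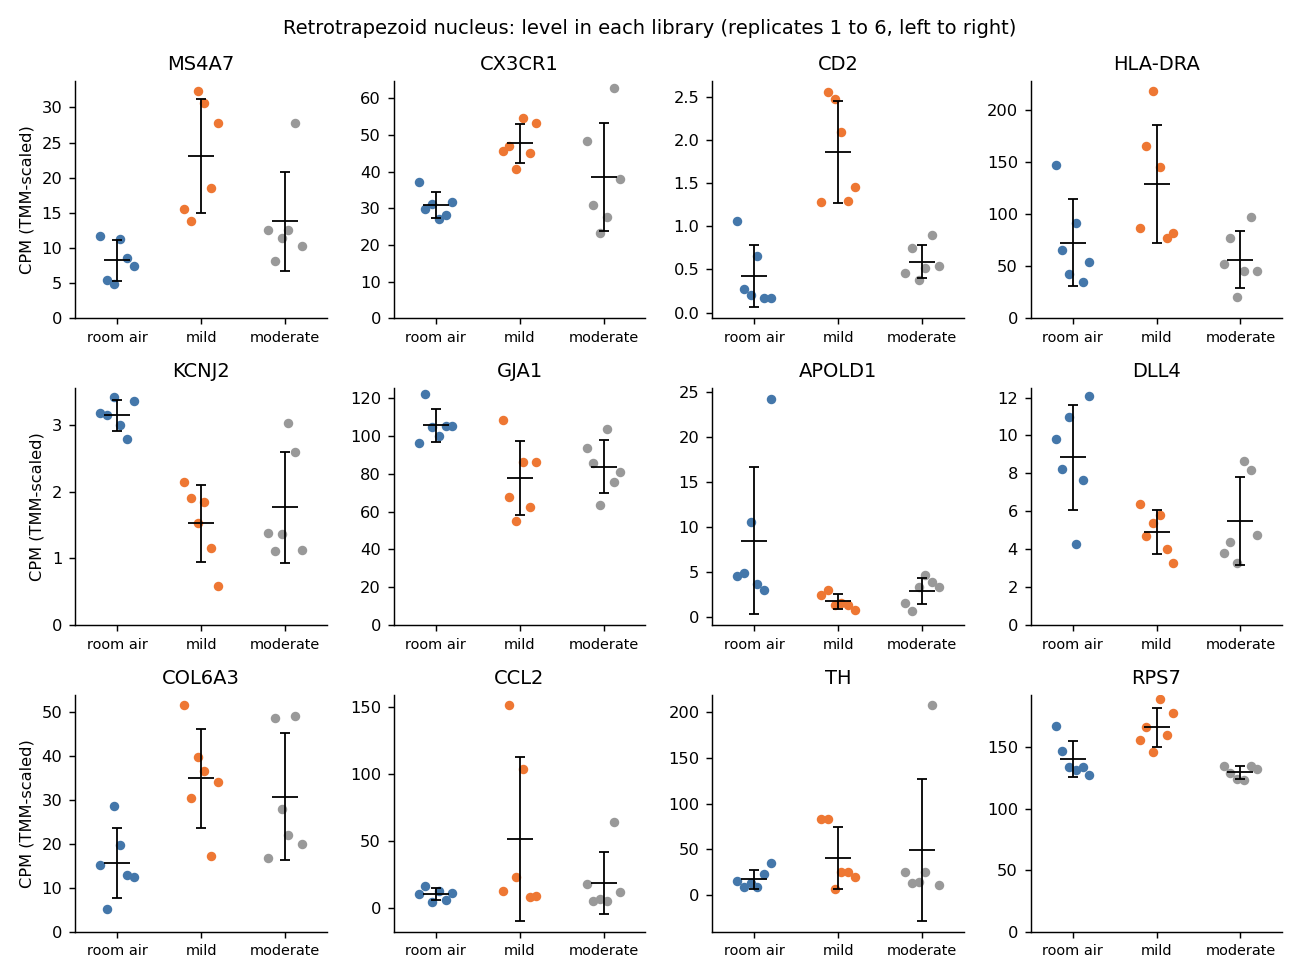
TMM-scaled CPM (y axes, from 0 or below) of 12 genes in the 18 retrotrapezoid libraries by condition (x axes), 1 point per library, with the mean as a bar and the SD as whiskers (n = 6). Room air and mild libraries do not overlap for MS4A7, CX3CR1, CD2, KCNJ2 and APOLD1, while CCL2 and TH have 2 high mild libraries each.

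Metabolic genes differed by small amounts. Ribosomal protein genes were positive in 28 of 29 tested members of 60 listed, 6 at an unadjusted p under 0.05, with a median of 0.14. The median was 0.21 without room air replicate 1, the highest room air library of this list. RPS7 was at 140 ± 14.8 CPM in room air and 166 ± 15.5 CPM in mild hypercapnia, a difference of 0.24 ± 0.07, and RPL27 differed by 0.22 ± 0.08. Reads of ribosomal protein genes and their near-identical copies cannot be separated here.

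Nuclear genes of oxidative phosphorylation were positive in 24 of 27, with a median of 0.09 and 6 at an unadjusted p under 0.05. NDUFB9, a subunit of complex I, was at 158 to 197 CPM in room air and 201 to 222 CPM in mild hypercapnia, without overlap (0.22 ± 0.07). ATP5PB, a subunit of ATP synthase, differed by 0.19 ± 0.06. Cholesterol synthesis and uptake genes were negative in 18 of 22, with a median of -0.14. Of these, 4 had an unadjusted p under 0.05, against 3.27% of all genes lower at that p. Among them were MVD (-0.19) and NSDHL (-0.17), enzymes of the synthesis pathway. Hypoxia-responsive and glycolysis genes were negative in 19 of 27, with P4HA1, a collagen prolyl hydroxylase, at -0.32 ± 0.13.

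LDH-A (chromosome 29), lactate dehydrogenase A as the table spells it, had libraries at 113, 126 and 191 CPM in room air and at 74.9, 90.1 and 116 CPM in mild hypercapnia. The groups overlapped at 1 mild library of 116 CPM. The log2 difference was -0.59 ± 0.13 (adjusted p 0.38 with edgeR and 0.0393 with DESeq2). Other genes of small p that were lower were PCDHGA4, a clustered protocadherin (-0.58 ± 0.12), SENP7, a SUMO protease (-0.43 ± 0.09), INTS7, an Integrator subunit (-0.41 ± 0.09), and CADM2, a synaptic adhesion molecule (-0.40 ± 0.10). DESeq2 called the first 3 of these, and groups did not overlap for PCDHGA4 and SENP7. Clustered protocadherins share exons, so the counts of PCDHGA4 are uncertain. Among genes with a symbol and a mean of at least 5 CPM, those of smallest p that were higher, after MS4A7, were TBL3, WIPF3, NINJ2, MSRA, PIGS, ETFA and LSM1, with differences of 0.22 to 0.70. NINJ2, an adhesion molecule, was the largest of these at 0.70 ± 0.18, and MSRA, which repairs oxidised methionine, differed by 0.45 ± 0.11.

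Myelin markers had a median of 0.15, with 10 of 12 positive, and ASPA, an enzyme of oligodendrocytes, was at -0.24 ± 0.10. The list median was 0.05 without mild replicate 1. TTR, the marker of choroid plexus, was at 1.30 to 61.4 CPM in room air and 0.471 to 312 CPM in mild hypercapnia, highest in replicate 5 of both groups. Of 21 tested purine signalling genes, 2 were higher and 1 lower at an unadjusted p under 0.05, against 3.32% and 3.27% of all genes. They were P2RY12, the adenosine receptor ADORA3 (0.52 ± 0.23) and the channel PANX1 (-0.29 ± 0.12). In the heat shock list CRYAB, a small chaperone, was the 1 member at an unadjusted p under 0.05 (0.28 ± 0.10), and of 19 circadian clock genes there were 0.

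The response of the RTN was set against the mean response of the other 3 regions in a fit of all 72 libraries. With 6 animals per condition the libraries of the 4 regions share animals, and the fit takes them as independent. Of 16372 genes, 0 (0%) had an adjusted p under 0.05, and 334 (2.04%) had an unadjusted p under 0.05, so no gene was shown to respond differently in the RTN. With a block for the replicate number within a condition, read as an animal, 554 genes had an unadjusted p under 0.05. Both counts are below a share of 0.05 of the genes tested. In the fit without that block, the 3 genes of smallest p with a symbol were KCTD5 (difference of responses 0.46), CRKL (-1.37) and MYOCD (-3.42), each with an adjusted p of 0.999887 in edgeR. The order changed with the block: TMEM127 (0.57), TNFSF15 (2.83) and KCTD5 (0.46) had the smallest p, and MYOCD was at -3.09. The smallest adjusted p with the block was 0.55 in edgeR. APOLD1 had mild-minus-room-air values of -2.63 in VRC, -2.33 in NTS and -2.39 in mPFC, beside -2.26 in the RTN. MS4A7 was positive in all 4 regions, at 1.29 in VRC, 0.89 in NTS and 1.16 in mPFC. For PTX3 the RTN response was larger than the mean of the others by 2.35, for CCL2 by 2.13 and for TH by 1.65. High single mild libraries entered these values. Without mild replicate 2 the mild-minus-room-air values in the RTN were lower, at 2.15 for PTX3, 1.65 for CCL2 and 0.91 for TH. The difference of responses was -0.85 for SYT1 and -0.47 for LDH-A. These 5 genes were chosen after their values were seen. In the edgeR fit without the block each had an unadjusted p under 0.05 and an adjusted p of 0.999887. With the block the value for PTX3 was 2.01, and those for the others are not reported here.

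For the lists, microglia medians were 0.44 in VRC, 0.15 in NTS and 0.15 in mPFC, beside 0.43 in the RTN. Antigen presentation medians were 0.76 in VRC, 0.08 in NTS and -0.29 in mPFC. T cell and leukocyte medians were 1.17 in VRC, 0.45 in NTS and -0.06 in mPFC, beside 0.40 in the RTN. Ribosomal protein medians were 0.26 in VRC, -0.16 in NTS and 0.20 in mPFC, beside 0.14 in the RTN. The GABA and glycine list was at -0.17 in VRC, -0.06 in NTS and -0.03 in mPFC. These differences between regions were not tested as lists.

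**Figure D5:**
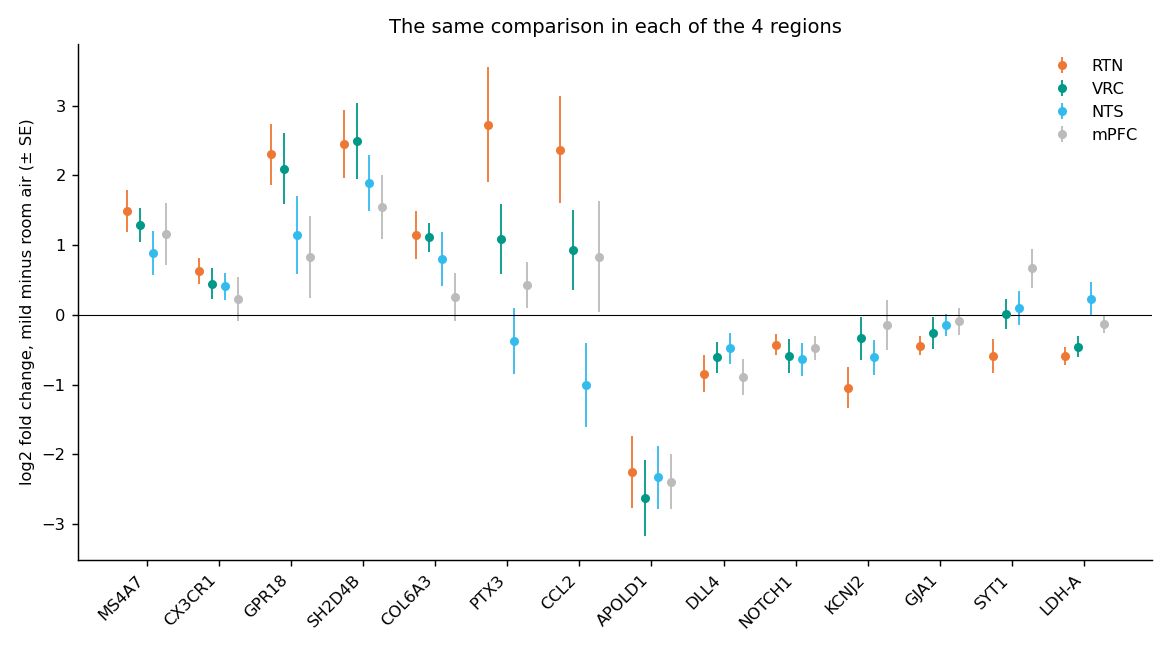
Log2 fold change, mild hypercapnia minus room air (y axis, whiskers are SE), of 14 genes (x axis) in each of the 4 regions. APOLD1 is below -2 in every region, MS4A7 is positive in every region, and PTX3 and CCL2 are highest in the retrotrapezoid nucleus at 2.73 and 2.37. Without mild replicate 2 of the retrotrapezoid nucleus the values of PTX3 and CCL2 there were 2.15 and 1.65.

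Moderate hypercapnia was set beside mild hypercapnia, a comparison that shares the 6 mild libraries with the one above. Again 0 genes (0%) had an adjusted p under 0.05 with edgeR (smallest 0.17), where DESeq2 called 126 of 15518 (0.812%), and 1620 (10.6%) had an unadjusted p under 0.05. CD2 was at 0.59 ± 0.194 CPM in moderate and 1.86 ± 0.59 CPM in mild hypercapnia (SD, n = 6 each), and EDNRB, an endothelin receptor of astrocytes, at 76.1 ± 7.42 and 54.8 ± 9.65 CPM. APOLD1 was at 2.92 ± 1.48 CPM, and KCNJ2 at 1.77 ± 0.832 CPM. Moderate minus mild, the ribosomal protein list had 29 of 29 members negative with a median of -0.34, the antigen presentation list 13 of 13 with -0.80 and the microglia list 14 of 14 with -0.47, where 47.7% of all genes were negative. These lists were named for their positive values in mild minus room air. The same mild libraries enter here with the opposite sign, so negative values are partly built in. Moderate minus room air, the medians of these lists were -0.19, -0.37 and -0.09. Moderate replicate 5 stood apart from its group in several lists, with the lowest neuron marker level of the 18 libraries (8.36) and the highest microglia level (4.87).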

How the data were processed

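RNA-seq of goat brain gave a table that the authors deposited with raw counts per gene for 21343 genes in 72 libraries, with RPKM values in another 72 columns and a gene model length. Per the submitters' processing notes the tools were STAR, featureCounts, Trimmomatic, FastQC and edgeR. For their versions, the genome build, the annotation and the strand setting, nothing is stated (not given in the sources used here). The deposited RPKM values imply library sizes of 1.005 to 1.007 times the count sums and served only for levels between genes. Low-input libraries with a SMARTer kit, per the labels' protocols, involve cDNA amplification, and no molecular identifiers are described, so amplification duplicates may be among the counts. In 31.1% of the genes no symbol is given, and these were tested but not named beyond counts. No sequence or genome was used here.

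The 18 RTN libraries (room air, mild and moderate, 6 each) were fitted together under R 4.3.3 by edgeR 4.0.16. Low genes were removed by filterByExpr (minimum count 10), library sizes were scaled by TMM, and the quasi-likelihood test was adjusted by Benjamini-Hochberg at 0.05. CPM is TMM-scaled. SE is the size of the log2 fold change over the square root of F. List levels are mean log2 CPM with a prior count of 2. The response in the RTN minus the mean of the other regions was fitted over the 72 libraries as if independent. The script was tested on simulated data. Libraries of a group were checked for duplicates, and none was found.

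The comparison and the 37 lists (24 of pathways and 13 of cell type markers) were chosen with earlier results of these data known, so no list is independent support. Named genes were those past the threshold or, where fewer passed, 8 per direction by smallest p with a symbol and a mean of at least 5 CPM. To these came the 2 of smallest p of each list, defining members, and all tested chemosensory genes. EDNRB, GPR18, SH2D4B and IL20RB, and further list members, were chosen after their values were seen. Some genes that the rule names are not reported here.

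Replicate numbers of room air and mild libraries did not pair: the median correlation of their deviations was 0.00624, and 1 of 6 pairs was over 0.1. Alternatives were DESeq2 1.42.0, limma 3.58.1 with quality weights, other size factors (RLE), no filter, 2 groups alone, a replicate block, a myelin score as covariate, and each of the 12 libraries left out.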

Additional observations from a re-analysis of the deposited data

Results flagged for a closer look

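Of 318 groups of 6 libraries checked, 22 had a highest or lowest library apart from the others by Dixon's criterion, where chance gives about 1 in 20. No cause was tested.

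Room air replicate 6 stood high for the immediate early list (mean log2 CPM 3.347), APOLD1 (24.26 CPM), NR4A1 (26.77), FOS (49.72) and CDKN1A (13.95). Room air replicate 1 stood high for the pericyte list (4.551) and MYH11, smooth muscle myosin (92.56 CPM), and low for NSDHL (104.7). Room air replicate 5 stood high for the choroid plexus list (3.436) and TTR (61.4 CPM) and low for ADRA2A (8.79), and mild replicate 5 was high for TTR (311.9).

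Mild replicate 1 stood low for the neuron list (8.619) and for GRM4, a metabotropic glutamate receptor (23.63 CPM). Room air replicate 2 stood high for GJA1 (122.1 CPM) and TPPP3, a gene of ciliated cells (479.2), and low for the muscarinic receptor CHRM5 (0.06846), while mild replicate 2 was high for CHRM5 (0.9526). Single libraries also stood high for the serotonin receptor HTR3A (room air replicate 3, 12.78 CPM), CHAT (mild replicate 3, 68.03), P2RY12 (mild replicate 6, 46.53) and SYT1 (mild replicate 4, 57.78).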

How the results depend on the processing

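The count of 0 genes at an adjusted p under 0.05 was 17 with DESeq2 and 1 with limma and quality weights, and 0 to 1 with each library left out in turn (1, CD2, without room air replicate 1). For moderate against mild it was 126 with DESeq2. Genes at an unadjusted p under 0.05, 1011 as reported, were 1249 with DESeq2 and ran from 695 without room air replicate 6 to 1372 with limma. A block for the replicate number gave 903, and the numbers did not pair these samples. With a block for the number within a condition, read as an animal, the 334 genes whose RTN response differed from the other regions at an unadjusted p under 0.05 were 554.

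Signs turned for genes with differences of up to 0.23 in size in the main fit, that of AHSP. With the myelin score, LBX1 was -0.15, CHAT 0.066 and SLC18A3 0.18, and with the replicate block TPH2 was -0.040. With each library left out, LBX1 ranged from -0.13 to 0.27, VIPR2 from -0.13 to 0.35, SLC6A4 from -0.18 to 0.13, TPH2 from -0.048 to 0.23, FOS from -0.30 to 0.11, SLC18A3 from -0.28 to 0.00031 and AHSP, a marker of red blood cells, from -0.032 to 0.48. Over all alternatives, 2281 values of named genes kept their sign and their side of the threshold, 14 came to pass it and 19 changed sign.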
